A study of Mus musculus with 8 samples.

Results

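Nuclear genes of respiratory complexes II, III, IV and V were examined in the right ventricle of POLG mutant mice. They were taken by symbol (names beginning with Sdh, Uqc, Atp5 or Cox and a digit, Sco1 and Sco2, with Cyc1, Cycs, Bcs1l, Ttc19 and Surf1), leaving out names that mark a pseudogene and the isoform pairs of Cox4, Cox6a, Cox7a and Cox8. This gave 64 genes of 55304 gene symbols in 55421 rows: 8 for complex II, 15 for complex III including cytochrome c, 24 for complex IV and 17 for complex V. RNA was measured by poly(A) RNA-seq in 8 female mice of 9 to 10 months, 1 library per mouse. The POLG group was 4 mice (E, F, G and H) homozygous for the D257A allele of the mitochondrial DNA polymerase gene (B6.129S7(Cg)-Polgtm1Prol/J), which is carried in every cell of the body and removes proofreading. The WT group was 4 wild-type mice (A, B, C and D) from the same heterozygous breeding. Whole right ventricle was used, so every value is an average over its cell types, and fewer cells of a type cannot be told apart from less RNA per cell. The p-values measure the spread between these mice.

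Complex II (succinate dehydrogenase) oxidises succinate and passes electrons to ubiquinone, complex III passes them on to cytochrome c, and complex IV (cytochrome c oxidase) gives them to oxygen. Complexes III and IV pump protons, and complex V (ATP synthase) uses the proton gradient to make ATP, which the beating heart consumes without pause. Complex II is encoded wholly in the nucleus. Complexes III, IV and V also hold subunits encoded in mitochondrial DNA, so their assembly needs products of both genomes, and dedicated assembly factors insert the hemes, copper and iron-sulfur clusters.

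Values are FPKM, fragments per kilobase of transcript scaled to the mapped fragments of the library, which put genes on a scale per length. All 9 markers of ventricular cardiomyocytes were found above the filter. Their summed FPKM ran between 9816 and 12319 in POLG libraries and between 12945 and 15284 in WT libraries without overlap. Of the 9, 2 were lower (limma adjusted p under 0.05), against 2.13% of all genes tested. Myh6, the main myosin heavy chain of the adult mouse heart, fell by 0.61 on the log2 scale (adjusted p = 0.037, and 0.155 without WT C and D). The erythroid list ran the other way, at 2722 to 4885 in POLG libraries and 890 to 1956 in WT libraries. Of its 5 genes 4 were higher, against 0.694% of all genes tested. The adipocyte list was at 22.6 to 28.2 in POLG libraries and 13.2 to 17.7 in WT libraries, with 4 of its 5 genes at or under 1 FPKM. Its 1 tested gene was higher. The mesothelial list was at 0.878 to 1.34 in POLG libraries and 1.70 to 7.77 in WT libraries, with 3 of its 4 genes at or under 1 FPKM. The smooth muscle list held 1 lower gene of 5 tested and the skeletal muscle list 1 higher gene of 2 tested. The background shares are the same 2.13% and 0.694%. The summed levels of these 2 lists and of the remaining lists overlapped. WT libraries C and D stood apart by atrial RNA, and not by that alone. Myl7, a light chain of atrial myosin, had at most 0.498 FPKM in POLG libraries. It reached 51.7 FPKM in WT C and 110 FPKM in WT D, against 0.142 to 0.149 FPKM in WT A and B. Nppa, of the same list, was at 196 FPKM in WT C, within the POLG range of 66.6 to 199 FPKM. Malat1 was at 237 FPKM in WT C and 211 FPKM in WT D, against 38.7 to 71.4 FPKM in the other libraries. The mesothelial sums were 7.77 and 6.97 in WT C and D. The part of these lists in the results on the members was not tested. Polg itself was at 3.12 to 3.88 FPKM in POLG libraries and 3.89 to 4.84 FPKM in WT libraries, and a level does not check a point mutation.

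Of the 64 members, 61 had a mean of at least 1 FPKM and were tested. In POLG ventricles 5 of the 61 were lower, against a background of 2.13% of the 10232 genes tested, and 0 were higher, against a background of 0.694% (limma, Benjamini-Hochberg adjusted p under 0.05). The lower members were Sdhb of complex II, Uqcr10 of complex III, Cox6c2 and Cox7c of complex IV and Atp5e of complex V, each by 17.6% to 28.2% of the WT mean. All 5 carry the name of a subunit, although Cox6c2 is annotated as a processed pseudogene. Among the 21 assembly factors tested, 0 passed, against the same 2.13%, and 2 were lower at an unadjusted p under 0.05, against 17.7% of all genes. Subunits and assembly factors each had a median log2 fold change of -0.14, at median levels of 229 and 6.59 FPKM. Without adjustment, 18 members were lower at p under 0.05, against 17.7% of all genes, and 0 were higher, against 4.61%. In 14 of the 61 members all 4 POLG values were under all 4 WT values, which held for 12.9% of all genes tested. The opposite arrangement held for 0 members and for 2.96% of all genes. The median log2 fold change of the members was -0.14, against -0.09 over all genes tested, and 55 of 61 were below 0 (90.2%), against 68.3% of all genes.

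These calls were sensitive to each single library and to the scaling. Leaving out any single mouse left 0 members past the threshold, except that Atp5e passed without WT C. Over all genes the lower calls also dropped, from 218 to between 30 and 117 of 10232. At an unadjusted p under 0.05, 13 to 20 members were lower in these fits, against 12% to 17.4% of all genes. Without WT C and D together 0 members passed, against 0.127% of all genes, while 13 were lower at an unadjusted p under 0.05, against 10.9% of all genes. The fold changes of the 5 genes themselves moved little when a mouse was left out. They stayed between -0.50 and -0.39 for Atp5e, -0.51 and -0.41 for Cox6c2, -0.39 and -0.32 for Cox7c, -0.34 and -0.28 for Uqcr10 and -0.30 and -0.25 for Sdhb. FPKM do not bring the libraries to a common centre: the median gene was lowest in POLG H, at -0.16 from its mean over libraries on the log2 scale, and highest in WT D, at 0.10. When libraries were rescaled by their median ratio, the median over all genes became 0.00 and that of the members -0.03, with 39 of 61 members below 0. Under that scaling Atp5e alone was lower, 1 of 61 members, against a background of 1.18%.

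**Figure D1:**
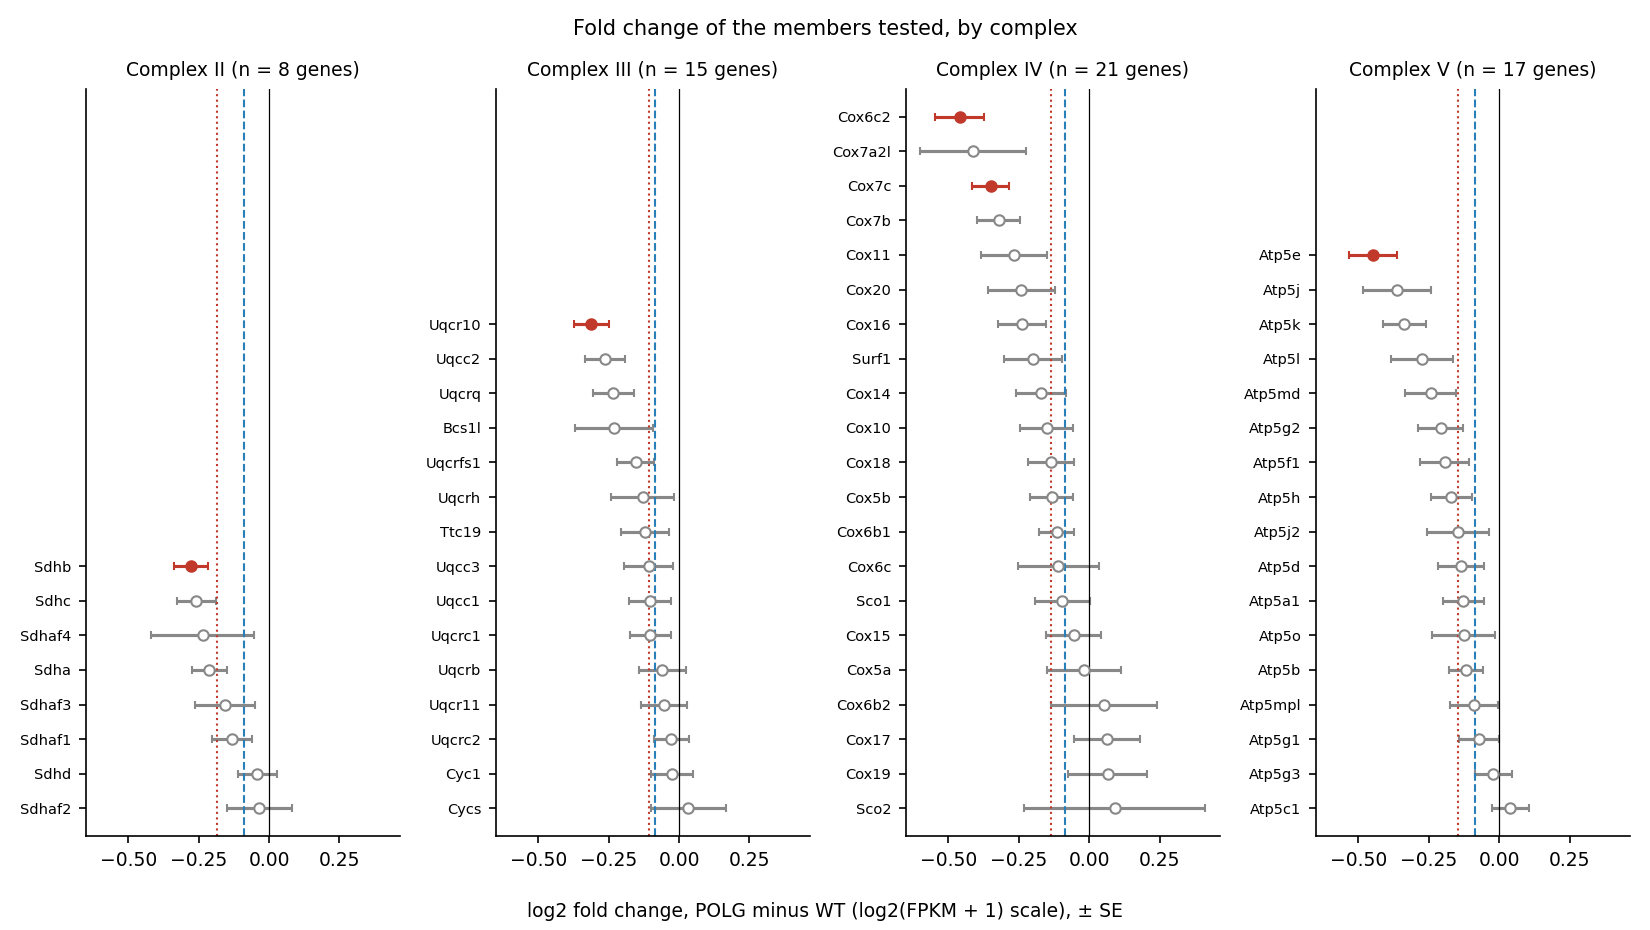
Log2 fold change of each member tested (POLG minus WT, on the log2(FPKM + 1) scale) with its SE, in a panel per complex. Filled red points are the 5 members past the threshold, the dashed blue line is the median of all genes tested (-0.09), the dotted red line is the median of the complex, and most points lie left of 0.

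The promoter sequences of the lower members are shown because these 4 genes carry the result on protein-coding members. They are RefSeq windows of build GRCm38.p6, read in the direction of the gene, from 250 bases before the RefSeq start, leaving out bases that lie inside the GENCODE gene. Atp5e lies at chr2:174464106-174464351 (minus strand), Sdhb at chr4:140961021-140961202 (plus strand), Uqcr10 at chr11:4704345-4704594 (minus strand) and Cox7c at chr13:86046905-86047045 (minus strand). Capitals mark a match, on either strand, to letters used here for 4 regulators of respiratory genes: CCGGAAG (ETS factors such as GABP), GCGCATGCG (NRF1), AAGGTCA (estrogen-related receptors) and AAGATGGC (YY1).
Atp5e: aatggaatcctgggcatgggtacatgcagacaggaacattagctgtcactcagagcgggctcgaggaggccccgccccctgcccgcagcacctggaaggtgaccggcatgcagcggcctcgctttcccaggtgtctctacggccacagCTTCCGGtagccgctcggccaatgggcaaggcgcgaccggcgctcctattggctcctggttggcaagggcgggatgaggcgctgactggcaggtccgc
Sdhb: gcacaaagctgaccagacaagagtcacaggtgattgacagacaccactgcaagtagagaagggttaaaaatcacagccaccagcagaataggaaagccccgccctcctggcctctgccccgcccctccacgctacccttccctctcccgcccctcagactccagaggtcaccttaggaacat
Uqcr10: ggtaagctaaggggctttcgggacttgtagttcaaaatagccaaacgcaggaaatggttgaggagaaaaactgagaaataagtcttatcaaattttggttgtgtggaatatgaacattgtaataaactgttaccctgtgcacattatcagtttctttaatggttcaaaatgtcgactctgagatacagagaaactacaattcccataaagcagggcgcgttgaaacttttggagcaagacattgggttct
Cox7c: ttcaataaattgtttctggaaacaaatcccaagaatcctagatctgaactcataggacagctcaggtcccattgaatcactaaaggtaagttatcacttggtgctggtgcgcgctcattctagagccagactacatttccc
Atp5e held the reverse complement of the ETS letters, at 102 to 96 bases before its start, and the printed windows of Sdhb, Uqcr10 and Cox7c held none of the 4. A RefSeq window was given for 50 of the 64 members. In the full 250 bases the ETS letters were in 14 of the 50 (28%), against 7.05% of 27025 genes with a window, and the NRF1 letters in 5 (10%), against 1.49%. The receptor letters were in 3 members (6%, against 4.05%) and the YY1 letters in 1 (2%, against 1.59%). No match overlapped a match to another motif, and 30 of the 50 members held none of them. A match is a run of letters, not a bound site.

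Complex II comprises 4 subunits and 4 assembly factors here. All 8 were tested, with a median log2 fold change of -0.18, the lowest of the 4 complexes on FPKM as deposited. Sdhb, the iron-sulfur subunit (chromosome 4, 140961203 to 140979193, plus strand, GENCODE vM21), had 217, 221, 223 and 223 FPKM in POLG mice E, F, G and H, against 256, 272, 259 and 285 FPKM in WT mice A, B, C and D. The groups did not overlap, and the POLG values lay within a few FPKM of each other. Sdhb averaged 221 ± 2.93 FPKM in POLG and 268 ± 13.1 FPKM in WT (SD, n = 4 each) and fell by 0.28 on the log2 scale (SE 0.059, limma adjusted p = 0.0473), with an exact permutation p of 0.0286, the smallest that 4 against 4 mice allow.

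Sdhc, a membrane anchor that holds heme, had 87.1, 86.7, 95.9 and 81.3 FPKM in POLG mice and 104, 105, 102 and 110 FPKM in WT mice. The groups did not overlap, but the gene missed the threshold (log2 fold change -0.26, SE 0.070, limma adjusted p = 0.0825). Sdha, the flavoprotein that binds succinate and the most abundant member of the complex, had 259, 263, 250 and 256 FPKM in POLG mice and 283, 323, 290 and 297 FPKM in WT mice. Here too each POLG mouse was below each WT mouse (log2 fold change -0.21, SE 0.062, limma adjusted p = 0.101). The other anchor, Sdhd, overlapped fully, with 225 to 270 FPKM in POLG and 241 to 254 FPKM in WT (log2 fold change -0.04, SE 0.071, limma adjusted p = 0.775). The 4 assembly factors Sdhaf1 to Sdhaf4 ranged in mean between 1.07 and 16.6 FPKM. None of them passed the limma test, and their log2 fold changes ran between -0.24 and -0.03. At an unadjusted p under 0.05, 0 were lower, against 17.7% of all genes.

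**Figure D2:**
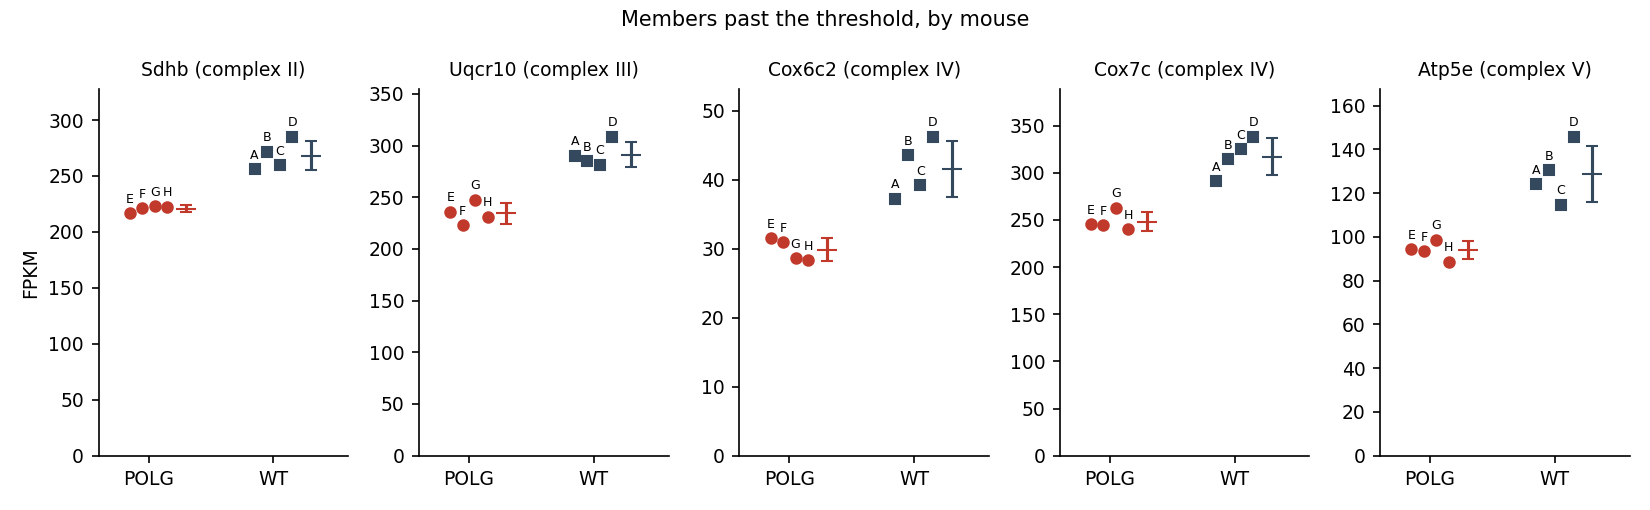
FPKM of the 5 members past the threshold in each mouse, POLG (red circles) left of WT (dark squares), with the mean and SD beside the points and letters naming the mice. In every panel all 4 POLG values lie below all 4 WT values.

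Complex III comprises 4 core subunits, 5 small subunits, 5 assembly factors and Cycs here, with a median log2 fold change of -0.11. Uqcr10, a small subunit (chromosome 11, 4701973 to 4704342, minus strand), was the member that passed. It had 236, 223, 248 and 231 FPKM in POLG mice E, F, G and H, against 290, 285, 281 and 308 FPKM in WT mice A, B, C and D. The lowest WT mouse was above the highest POLG mouse. The means were 234 ± 10.4 FPKM in POLG and 291 ± 12.1 FPKM in WT (SD, n = 4 each), and Uqcr10 fell by 0.31 on the log2 scale (SE 0.062, limma adjusted p = 0.0387, exact permutation p = 0.0286). Set against Uqcrc2, a core subunit of the same complex, Uqcr10 was at 98.4% to 109% in POLG libraries and 123% to 131% in WT libraries. Uqcrc2 was chosen for this ratio after its values were seen.

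The other complex III genes moved less. Uqcc2, an assembly factor needed for cytochrome b, had 46.5, 46.4, 53.6 and 47.3 FPKM in POLG mice and 58.4, 60.1, 56.5 and 58.3 FPKM in WT mice, without overlap (log2 fold change -0.26, SE 0.071, limma adjusted p = 0.0804). Uqcrq, a small subunit that contacts cytochrome b, had 141, 132, 149 and 134 FPKM in POLG mice and 168, 173, 147 and 167 FPKM in WT mice. POLG G and WT C overlapped, and the log2 fold change was -0.23 (SE 0.074, limma adjusted p = 0.123). Uqcrfs1, the Rieske iron-sulfur protein and the most abundant member of the complex, had 347, 360, 382 and 328 FPKM in POLG mice and 387, 402, 379 and 407 FPKM in WT mice. POLG G again reached the WT range (log2 fold change -0.15, SE 0.065, limma adjusted p = 0.212).

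The core proteins Uqcrc1 and Uqcrc2 and the heme protein Cyc1 gave log2 fold changes between -0.10 and -0.03, with overlapping groups. Cycs, the mobile carrier between complexes III and IV, ranged between 116 and 174 FPKM in POLG and between 121 and 161 FPKM in WT (log2 fold change 0.03, SE 0.135, limma adjusted p = 0.915). It was the only complex III gene above 0 on FPKM as deposited. Its sign turned, to -0.22 (limma adjusted p = 0.334), when near-identical copies, which held 82.6% as much FPKM as the gene, were added. Among these copies Gm10108 was at 57.9, 55.0 and 58.8 FPKM in WT A, B and D. It was at 2.28 FPKM in WT C and 2.05 to 3.09 FPKM in POLG libraries. The sum was not tested without that copy, so the turn of sign is uncertain. After median ratio scaling 7 of the 15 were below 0.

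Complex IV had the largest number of members, 11 named as subunits and 13 as assembly factors, of which 9 and 12 were tested. The median log2 fold change over the 21 was -0.14. Cox7c, a small membrane subunit (chromosome 13, 86044816 to 86046904, minus strand), had 246, 245, 263 and 240 FPKM in POLG mice E, F, G and H, against 291, 314, 325 and 338 FPKM in WT mice A, B, C and D. The gap between the groups was wider than the range of the POLG mice. Cox7c averaged 248 ± 9.89 FPKM in POLG and 317 ± 19.999 FPKM in WT (SD, n = 4 each) and fell by 0.35 on the log2 scale (SE 0.067, limma adjusted p = 0.0379, exact permutation p = 0.0286). Leaving out WT C and D gave -0.28 (limma adjusted p = 0.201).

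Cox6c2 (chromosome 12, 56373593 to 56373823, minus strand) is annotated in GENCODE as a processed pseudogene, and its 231 bases are 97.0% identical to the transcript of Cox6c, the gene of subunit VIc. It had 31.6, 30.9, 28.6 and 28.3 FPKM in POLG mice, against 37.3, 43.5, 39.2 and 46.2 FPKM in WT mice. The means were 29.9 ± 1.63 FPKM in POLG and 41.6 ± 4.06 FPKM in WT (SD, n = 4 each), and Cox6c2 fell by 0.46 on the log2 scale (SE 0.087, limma adjusted p = 0.0369, exact permutation p = 0.0286). Cox6c itself had 90.4, 90.4, 99.0 and 87.7 FPKM in POLG mice and 79.8, 117, 84.2 and 123 FPKM in WT mice. WT A and C lay below every POLG mouse and WT B and D above every one. Reads from 2 such similar copies can be assigned to either. When the copies were added to Cox6c, the log2 fold change of the sum was -0.21 (limma adjusted p = 0.351), so the call on Cox6c2 is uncertain.

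Cox7b, a small membrane subunit, had 246, 233, 268 and 242 FPKM in POLG mice and 285, 292, 328 and 333 FPKM in WT mice, without overlap (log2 fold change -0.32, SE 0.077, limma adjusted p = 0.0636). Its testis paralogue Cox7b2 was listed at 0 in all 8 libraries, and so was Cox8c. Cox6b1, which faces the intermembrane space and was the most abundant member of the complex, had 461, 429, 459 and 435 FPKM in POLG mice and 456, 509, 467 and 502 FPKM in WT mice. The groups overlapped (log2 fold change -0.11, SE 0.062, limma adjusted p = 0.309), and after median ratio scaling its log2 fold change was 0.0026. Cox6b2, the paralogue known from testis, was at 0.475% to 0.862% of Cox6b1 in POLG libraries and 0.333% to 0.635% in WT libraries.

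Cox7a2l differed between mice of the POLG group rather than evenly between genotypes. This relative of the Cox7a subunits is known for joining complexes III and IV into supercomplexes. It had 93.3, 55.7, 93.3 and 54.5 FPKM in POLG mice E, F, G and H, against 92.7, 95.9, 95.8 and 99.0 FPKM in WT mice A, B, C and D. POLG E and G lay in the WT range and POLG F and H well below it, so the SE was 0.187 and the log2 fold change of -0.41 did not pass (limma adjusted p = 0.236). As a share of Cox7b in the same library it was at 37.9%, 23.9%, 34.9% and 22.5% in POLG E, F, G and H and at 29.2% to 32.9% in WT.

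The assembly factors of complex IV were low, with means between 1.597 and 33.8 FPKM, against 2.58 to 465 FPKM for the subunits. None of the 12 passed, and the log2 fold changes ran between -0.27 and 0.09. At an unadjusted p under 0.05, 1 was lower, against 17.7% of all genes. The copper chaperones Sco1 and Sco2 were both low. Sco1 was at 2.86 to 3.54 FPKM in POLG and 3.05 to 3.99 FPKM in WT, and Sco2 at 2.03 to 5.37 FPKM in POLG and 1.41 to 5.26 FPKM in WT. Cox16 and Cox18, which act in the maturation of the mitochondria-encoded core subunits, had POLG libraries all below the WT libraries without passing the test. Cox20b, a pseudogene in GENCODE, was detected in 2 libraries and was not tested.

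Complex V comprises 5 subunits of the F1 head, 3 genes of subunit c, 4 of the peripheral stalk and 5 small membrane subunits here, with a median log2 fold change of -0.15. Atp5e, the epsilon subunit of the central stalk (chromosome 2, 174461072 to 174464105, minus strand), was the member that passed, and it passed under quantile normalization and median ratio scaling too. It had 94.5, 93.5, 98.6 and 88.6 FPKM in POLG mice E, F, G and H, against 124, 130, 115 and 146 FPKM in WT mice A, B, C and D. Every WT mouse was above every POLG mouse. The means were 93.8 ± 4.12 FPKM in POLG and 129 ± 13.0 FPKM in WT (SD, n = 4 each), and Atp5e fell by 0.45 on the log2 scale (SE 0.084, limma adjusted p = 0.0369, exact permutation p = 0.0286). After median ratio scaling the change was -0.33 (limma adjusted p = 0.0462), and without WT C and D it was -0.44 (limma adjusted p = 0.103).

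The partners of Atp5e in the F1 head gave smaller differences. The alpha subunit Atp5a1, the most abundant member of all, had 843, 880, 887 and 997 FPKM in POLG mice and 944, 1084, 952 and 958 FPKM in WT mice (log2 fold change -0.13, SE 0.074, limma adjusted p = 0.340). The gamma subunit Atp5c1, whose stalk epsilon binds, was at 340 to 347 FPKM in POLG and 320 to 370 FPKM in WT. Atp5e was at 25.6% to 28.8% of Atp5c1 in POLG libraries and 33.5% to 44.3% in WT libraries. Against Atp5a1 it was at 8.88% to 11.2% in POLG and 12.02% to 15.2% in WT. The partners were chosen after their values were seen, and no test was made of the ratios.

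Atp5k, a small membrane subunit of the dimer interface, had 245, 252, 280 and 230 FPKM in POLG mice and 313, 324, 297 and 338 FPKM in WT mice. The groups did not overlap, and the gene lay just outside the threshold (log2 fold change -0.34, SE 0.077, limma adjusted p = 0.0551). It passed when only genes averaging 5 FPKM or more were tested and with a robust prior. Atp5j, coupling factor 6 of the peripheral stalk, had 62.0, 65.8, 61.2 and 56.5 FPKM in POLG mice and 70.1, 99.6, 68.8 and 81.8 FPKM in WT mice. Its WT values were spread widely, and the log2 fold change of -0.36 had an SE of 0.121 (limma adjusted p = 0.135).

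Subunit c forms the rotor ring and is made from 3 genes whose proteins differ only in the import sequence. Atp5g3 gave most of its RNA, 64.0% to 65.9% of the summed FPKM in POLG libraries and 62.5% to 64.7% in WT libraries. Atp5g1 gave 21.8% to 22.4% in POLG and 21.3% to 23.7% in WT. Atp5g2 gave 12.01% to 13.57% in POLG and 13.67% to 15.57% in WT, and these ranges did not overlap. None of the 3 passed the limma test, with log2 fold changes between -0.21 and -0.02. At an unadjusted p under 0.05, 1 of the 3 was lower, against 17.7% of all genes. The shares of Atp5g1 and Atp5g2 rest on reads that can also fall on copies elsewhere.

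**Figure D3:**
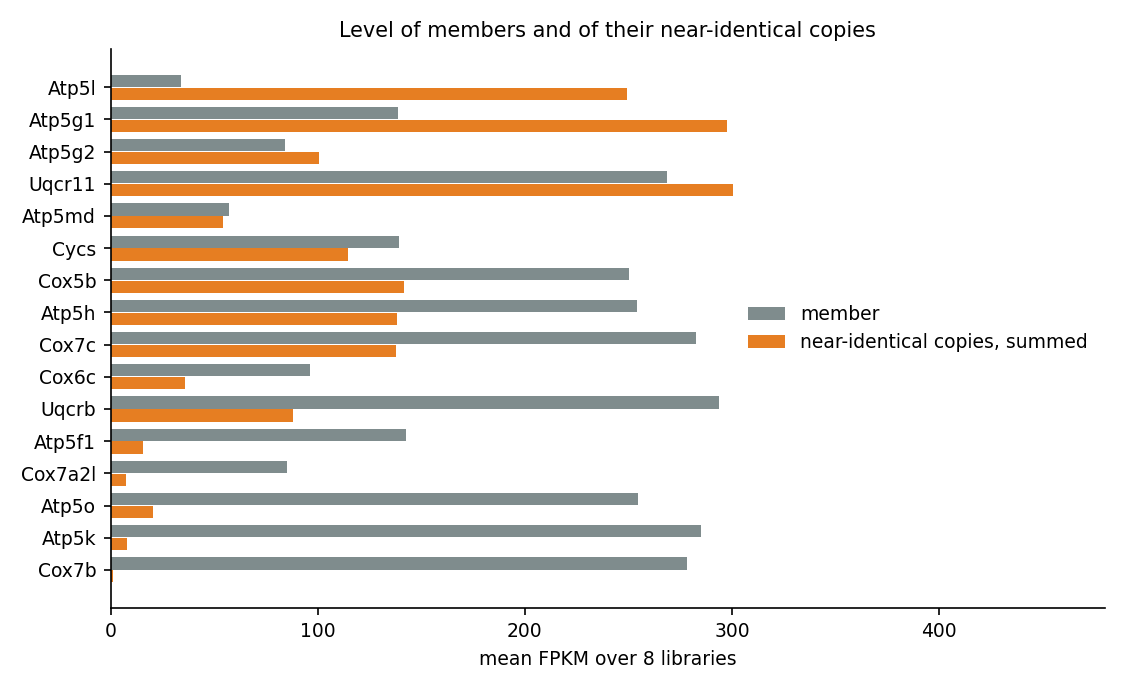
Mean FPKM over the 8 libraries of 16 members (grey) and of their near-identical copies elsewhere in the genome, summed (orange). For Atp5l, Atp5g1, Atp5g2 and Uqcr11 the copies were listed at a higher level than the gene.

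Genes of these complexes have many processed copies in the mouse genome, and 18 protein-coding members had a copy at another locus, other than a microRNA, that was at least 95% identical over at least 100 bases and 50% of the copy. Atp5l, subunit g, was listed at 33.9 FPKM and its 10 copies at 249 FPKM, of which 231 FPKM stood under Gm10221, identical over 309 bases. Atp5g1 was at 139 FPKM and its copy Gm10039 at 298 FPKM, and Uqcr11 at 268 FPKM and its copies at 301 FPKM. For Cox7c the copies had 138 FPKM beside 283 FPKM for the gene. The level of these genes is therefore uncertain. When the copies were added to the protein-coding genes, Cox7c stayed past the threshold, at -0.34 (limma adjusted p = 0.0387). Cox6c2 kept its own values in that fit, so its call was not checked by it. Uqcr11 moved to -0.17, Uqcrb to -0.13, Atp5g1 to -0.11 and Atp5g2 to -0.13, none past the threshold. Atp5e, Sdhb and Uqcr10 had no such copy, so the addition left their values as they were.

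Summed over genes, complex II members had 823, 835, 867 and 804 FPKM in POLG mice E, F, G and H, against 916, 975, 931 and 969 FPKM in WT mice A, B, C and D. Complex V members ran between 3927 and 4213 FPKM in POLG and between 4215 and 4571 FPKM in WT. In complexes II and V the groups did not overlap, though in complex V the gap between POLG H and WT A was narrow. These sums are on FPKM as deposited. The median ratio factor, by which a library is divided, was 0.870 for POLG H and 1.04 for WT A. Rescaling would thus raise the sums of POLG H and lower those of WT A, so the separation depends on the scaling. Complex III sums were 2324 to 2542 FPKM in POLG and 2473 to 2707 FPKM in WT, and complex IV sums were 1598 to 1815 FPKM in POLG and 1803 to 2117 FPKM in WT, both with overlap. All members together made up 2.52% to 2.67% of the FPKM of nuclear-encoded genes in POLG libraries and 2.80% to 3.13% in WT libraries. The balance among complexes moved little, since complex V held 43.6% to 46.6% of the members' FPKM in POLG and 44.1% to 45.0% in WT.

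**Figure D4:**
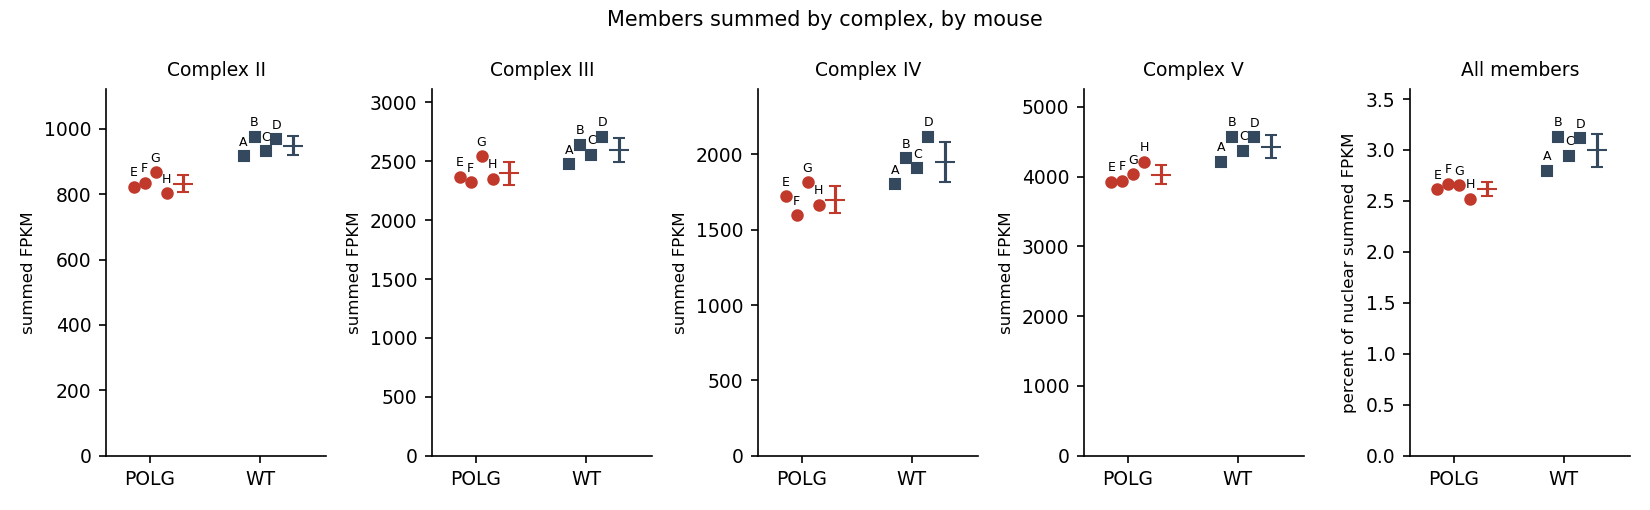
Summed FPKM of the members of each complex, and all members as a percent of the FPKM of nuclear-encoded genes, in each mouse, POLG (red circles) left of WT (dark squares), with mean and SD. The sums are on FPKM as deposited, without rescaling. The percentages lie between 2.52 and 2.67 in POLG and between 2.80 and 3.13 in WT.

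The mitochondria-encoded mRNAs of complexes III, IV and V were measured in the same libraries. Of the 6, mt-Co1, the catalytic subunit of complex IV, was higher, with 69619, 68856, 68362 and 71584 FPKM in POLG mice and 61964, 61454, 63479 and 59844 FPKM in WT mice (log2 fold change 0.17, SE 0.035, limma adjusted p = 0.0423). That call was lost without any single library, at adjusted p of 0.0597 to 0.13, and after median ratio scaling (adjusted p = 0.121). mt-Cytb of complex III had a log2 fold change of -0.23 (limma adjusted p = 0.0593) with no overlap between groups, and the other 4 overlapped. The mean log2 FPKM of the nuclear complex IV subunits minus that of their mitochondria-encoded partners was -8.57 to -8.33 in POLG and -8.31 to -7.93 in WT. In complexes III and V the same difference overlapped between the groups. For complex IV the nuclear mean covers 9 genes, among them the pseudogene Cox6c2, and leaves out the isoform pairs. POLG G (-8.33) and WT A (-8.31) lay close together, so the separation can depend on which genes enter the mean. It was not computed without Cox6c2. The libraries were poly(A) selected, so a level is compared here between mice and not between the 2 genomes.

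**Figure D5:**
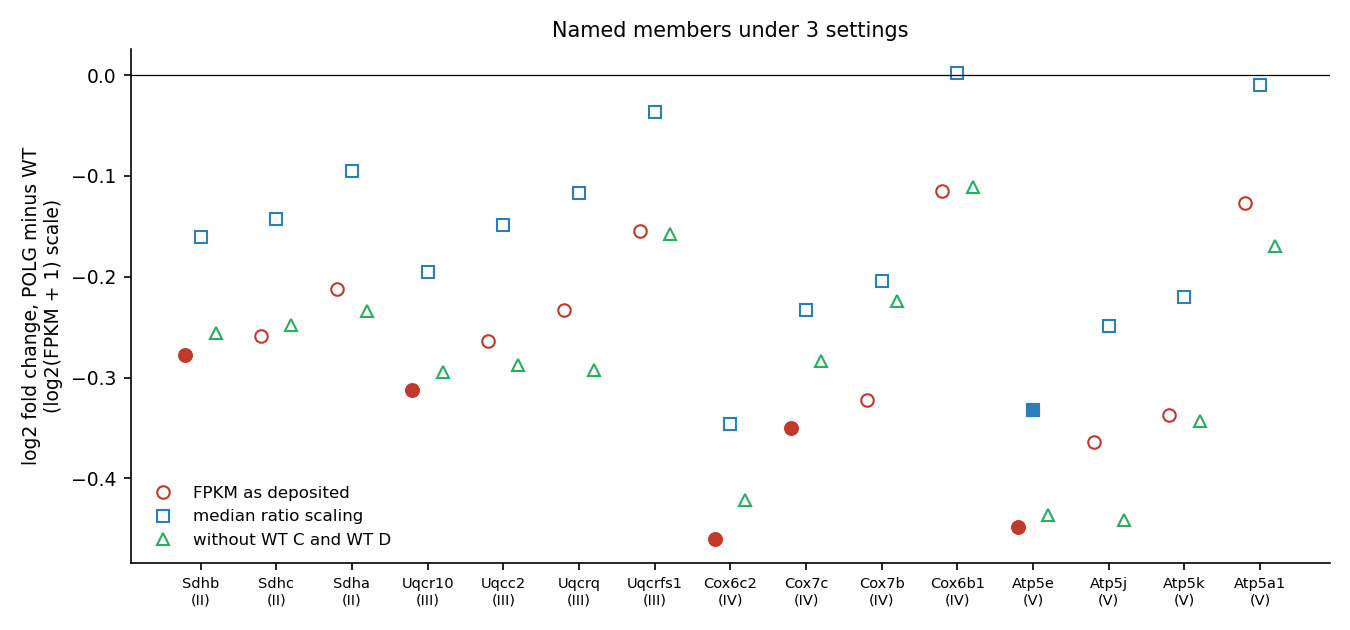
Log2 fold change (POLG minus WT) of the 15 named members on FPKM as deposited (red circles), after median ratio scaling (blue squares) and without WT C and D (green triangles), with filled symbols past the threshold. Median ratio scaling moves every point up, and Atp5e alone stays filled under it.

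Across members, length and level gave weak relations. Spearman's rho of coding length with log2 fold change was 0.19 over 60 members and 0.30 over the 38 members averaging 50 FPKM or more, against 0.07 over 9208 genes of all kinds and 0.05 over 438 other genes of that level. These are descriptions over genes measured in the same 8 libraries. Of the 18 members with a coding length of up to 300 bases 3 were lower (16.7%), with a median log2 fold change of -0.14. Of the 231 other genes of that length 6 were lower (2.60%), with a median of -0.17. Of the 32 among these averaging 50 FPKM or more 4 were lower (12.5%), with a median of -0.20. The 18 members were not filtered at 50 FPKM. Of the 42 longer members 1 was lower (2.38%), against 2.09% of all longer genes tested, and Cox6c2 has no coding length.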

How the data were processed

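RNA was poly(A) selected, prepared as stranded TruSeq libraries from 8 right ventricles and sequenced in paired ends by the authors, whose mapper was HISAT2 on mm10. StringTie gave the deposited FPKM. cutadapt, FastQC and edgeR are also named in the submitters' processing notes, with no version in the sources used here. The deposited table also holds the authors' fold change and log2 fold change columns, which were not used. Read counts were not analysed here, so depth is unknown: 37.5% to 48.1% of low values fell within 0.02 of a whole read under the best spacing found, too few to recover reads.

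The row with the highest mean was kept per symbol, and genes averaging 1 FPKM or more were tested with limma 3.58.1 (R 4.3.3; trend in the prior variance, two-sided) on log2(FPKM + 1), so fold changes of low genes are understated. Benjamini-Hochberg adjustment ran over all 10232 genes with a threshold of 0.05. Exact permutation tests used the 70 assignments. Near-identical copies were found with blastn 2.17.0 on GENCODE vM21 transcripts. Named members were, per complex, every member past the threshold, the 3 with the smallest p and the most abundant, with levels of paralogues fixed beside them. Members and lists were chosen with earlier results of these data known. Every fit was repeated under other pseudocounts, filters, scalings and priors, and without each library. The fit was tested on simulated data.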

Additional observations from a re-analysis of the deposited data

Results flagged for a closer look

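In 44 groups of 4 mice checked, 2 values lay far from the other 3 of their group, and chance flags about 1 in 20 such groups. Uqcc2, the complex III assembly factor, was at 53.57 FPKM in POLG G, with the other POLG mice close together at 46.4 to 47.3 FPKM, and the gap to them was 0.874 of the whole range of the group. Atp5a1 was at 1084 FPKM in WT B, with the other WT mice at 944 to 958 FPKM, a gap of 0.905 of the range.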

How the results depend on the processing

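The count of lower members, 5 on FPKM as deposited, was 4 with a pseudocount of 5 or scaling to nuclear-encoded genes. Over all genes the lower calls were 218, 226 and 197 of 10232 in these settings. The count of members was 5 with a pseudocount of 0.1, with rows of a symbol summed or with copies added. Of these 5, adding copies changed the values of Cox7c alone. Over all genes these settings gave 208 of 10232, 219 of 10234 and 218 of 10232. The count of members was 6 with a robust prior, against 225 of 10232 genes. With a filter at 5 FPKM it was 7 of 54 members tested, against 214 of 4331 genes. It was 2 without a trend (189 of 10232 genes), 2 after quantile normalization (140), 1 after median ratio scaling (121) and 0 without a filter (58 of 27270). Without a filter 19 of 62 members tested were lower at an unadjusted p under 0.05, against 10.1% of all genes. Leaving out each mouse gave 0 to 1 members, against 30 to 117 of 10232 genes. Leaving out WT C and D gave 0, against 13 of 10232 genes. With median ratio scaling as well it gave 0, against 8. The exact permutation test over 70 assignments gave 0 after adjustment, with a smallest adjusted p of 0.18 among members. The smallest p that test allows is 0.0286, and 0 of all 10232 genes passed it after adjustment. Its count of 0 therefore cannot tell the members from other genes. At the smallest p of that test 14 members were lower, against 12.9% of all genes. Median ratio scaling moved the median log2 fold change to -0.096 in complex II, 0.0039 in complex III, -0.040 in complex IV and -0.031 in complex V. Quantile normalization gave -0.099 in complex II and -0.041 in complex III. Without WT C and D and with median ratio scaling the medians were -0.081, 0.0087, -0.025 and 0.0011 in complexes II, III, IV and V. Cox6b1 changed sign, to 0.0026 after median ratio scaling and 0.0018 when WT C and D were also left out. Leaving out WT C and D and adding copies were alternatives chosen after seeing the data. The cause of these shifts was not tested. No paired analysis was possible because the labels give the mice of both genotypes different letters.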

Other observations

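Genes of the same complexes outside the rule were examined from lists fixed beside it. Of the 8 isoform genes of complex IV left out of the rule, 2 were lower (limma, Benjamini-Hochberg adjustment over all genes tested). The background was 2.13% of all genes tested. Of these 2 genes, 1 remained after median ratio scaling, where 1.18% of all genes were lower. Without WT C and D 0 remained, where 0.127% of all genes were lower. Cox6a2, the heart and muscle isoform of subunit VIa, had 1159, 1112, 1187 and 1214 FPKM in POLG mice E, F, G and H, against 1562, 1574, 1570 and 1560 FPKM in WT mice A, B, C and D. It fell by 0.42 on the log2 scale (SE 0.050, limma adjusted p = 0.00629), with an adjusted p of 0.097 after median ratio scaling and 0.0737 without WT C and D. Cox7a1, the muscle isoform of subunit VIIa, had 463, 443, 489 and 410 FPKM in POLG mice and 673, 738, 582 and 717 FPKM in WT mice, without overlap. It fell by 0.58 (SE 0.091, limma adjusted p = 0.0207), with an adjusted p of 0.0247 after median ratio scaling and 0.0625 without WT C and D. When single mice were left out, the limma adjusted p ran from 0.0141 to 0.0339 for Cox6a2 and from 0.0175 to 0.074 for Cox7a1. Of the 48 complex I genes tested, 0 passed in limma and 18 were lower at an unadjusted p under 0.05, against 17.7% of all genes tested, with a median log2 fold change of -0.13.

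None of the 16 further assembly genes of complex IV, the 5 further genes of complex V or the 13 tested regulators of respiratory genes passed the limma test. At an unadjusted p under 0.05 the counts lower and higher were 8 and 1, 0 and 1, and 3 and 0 in these lists. Over all genes tested the shares were 17.7% lower and 4.61% higher. Atpif1, the inhibitor of ATP synthase, had 61.4, 74.2, 66.7 and 76.4 FPKM in POLG mice and 38.4, 44.1, 49.7 and 60.8 FPKM in WT mice. These groups did not overlap, and the log2 fold change of 0.54 (SE 0.140) had an adjusted p of 0.0764. Perm1, a muscle regulator of mitochondrial genes, had 47.3, 59.3, 47.3 and 47.4 FPKM in POLG mice and 71.4, 59.3, 74.6 and 68.3 FPKM in WT mice (log2 fold change -0.44, SE 0.104, limma adjusted p = 0.0619). Esrra, which encodes an estrogen-related receptor, had 25.3, 23.6, 24.6 and 21.4 FPKM in POLG mice and 25.7, 31.0, 31.4 and 33.8 FPKM in WT mice (log2 fold change -0.35, SE 0.098, limma adjusted p = 0.0953). The receptor genes Esrrb and Esrrg went the other way, at 0.14 and 0.15 (limma adjusted p = 0.689 and 0.531). Of the 13 regulators tested 8 were below 0 (61.5%, against 68.3% of all genes) and 5 above. Their median was -0.03, against -0.09 over all genes tested. Pet117, an assembly factor of complex IV, was at 4.72, 4.03 and 4.97 FPKM in POLG E, G and H and listed at about 0 in POLG F and in all WT libraries.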
